A study of Mus musculus with 32 samples.

Results

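MicroRNA (miRNA) levels in the lungs of newborn mice kept in normoxia were compared between 2 ages, counted in postnatal days, P14.5 (4 pups, replicates 25 to 28) and P5.5 (4 pups, replicates 17 to 20). These 8 arrays were chosen by their deposited labels for exposure and age from the 32 arrays of the series, which also held hyperoxia-exposed pups and the ages P2.5 and P3.5. The pups were wild-type C57BL/6J mice, which were assigned at random to an oxygen level on the day of birth, with litters balanced. Every lung was flushed through the heart with buffered saline until white, frozen whole and extracted for total RNA, and each array carried the RNA of 1 pup. Pups up to P5.5 were recorded as euthanized with pentobarbital and those at P14.5 with isoflurane, so the age and the agent cannot be told apart. The published methods differ from this record and name a pentobarbital overdose for every age. Which pups shared a litter was not given in the sources used here, and p-values measure the spread between these pups. All 1079 mouse miRNAs of the array were considered, and the tests covered the 256 detected on all 4 arrays of P5.5, of P14.5 or of both.

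Mouse lungs are born with wide, thick-walled saccules. During the first postnatal weeks, ridges called secondary septa grow from the saccule walls and divide the airspace into alveoli, while the walls thin, the mesenchyme between the capillaries regresses and cell division slows. P5.5 lies within the main period of septation and P14.5 near its end. A miRNA is a short RNA that lowers the translation and stability of messenger RNAs, and it finds them mainly through its seed, which is bases 2 to 8 from its 5′ end. MiRNAs that share a seed can act on overlapping sets of messenger RNAs, and miRNAs made from 1 primary transcript form a cluster.

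The sequences of the miRNAs to which the results refer most often are given here from RefSeq (GRCm38.p6), which held a mature sequence for 882 of the 1079 miRNAs on the array. They are written 5′ to 3′ with the seed in capitals. The first set holds 3 miRNAs of the Dlk1-Dio3 region of chromosome 12 (miR-127-3p at chr12:109592888-109592909, miR-379-5p at chr12:109709065-109709085, both plus strand) and the red-cell miRNAs miR-144-3p and miR-451 of chromosome 11 (chr11:78073047-78073066 and chr11:78073186-78073207, plus strand).
miR-127-3p: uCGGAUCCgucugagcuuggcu
miR-379-5p: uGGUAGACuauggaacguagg
miR-376a-3p: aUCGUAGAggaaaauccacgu
miR-144-3p: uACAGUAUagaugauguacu
miR-451: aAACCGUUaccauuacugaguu
The second set holds the 6 tested miRNAs with the seed AGCAGCA, because members of this family moved in opposite directions.
miR-497-5p: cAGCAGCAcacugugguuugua
miR-195-5p: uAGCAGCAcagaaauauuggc
miR-15a-5p: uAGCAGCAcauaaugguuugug
miR-16-5p: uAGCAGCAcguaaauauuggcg
miR-15b-5p: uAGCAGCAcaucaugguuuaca
miR-322-5p: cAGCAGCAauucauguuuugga
The third set holds the 3 tested miRNAs with the seed AGUGCAA and 3 members of the miR-17~92 cluster (chromosome 14), which fell together.
miR-130b-3p: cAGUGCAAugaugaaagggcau
miR-301a-3p: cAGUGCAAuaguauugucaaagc
miR-130a-3p: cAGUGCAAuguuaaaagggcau
miR-18a-5p: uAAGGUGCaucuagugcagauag
miR-20a-5p: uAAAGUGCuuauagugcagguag
miR-92a-3p: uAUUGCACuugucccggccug
The last set holds members of the let-7 and miR-99/100 families, of which some rose and others did not, and 4 of the miRNAs with the largest rises.
let-7b-5p: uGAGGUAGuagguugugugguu
let-7c-5p: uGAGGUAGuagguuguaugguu
let-7a-5p: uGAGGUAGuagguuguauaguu
miR-100-5p: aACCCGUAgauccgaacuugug
miR-99a-5p: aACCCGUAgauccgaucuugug
miR-5128: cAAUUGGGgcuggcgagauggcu
miR-706: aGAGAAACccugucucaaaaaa
miR-5126: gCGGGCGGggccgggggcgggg
miR-125a-3p: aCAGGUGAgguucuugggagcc

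Levels are given throughout as log2 of the scaled probe signal, in which 1 unit is a 2-fold change, and a difference is the P14.5 mean less the P5.5 mean. Levels of different miRNAs come from different probes and were not compared with each other. The 8 arrays had 75th percentile signals of 432 to 1411 intensity units before scaling, and 223 to 323 miRNAs were detected on each. P14.5 replicate 28 stood apart, with the lowest of these values, and its labelling spike-in lay outside the range accepted by the scanner software. Across miRNAs, arrays of the same age correlated at r = 0.988 to 0.992 at P5.5 and 0.973 to 0.996 at P14.5, and arrays of different ages at 0.835 to 0.939. The age groups were only partly mixed on the slides. P5.5 replicates 17 and 19 lay on slide 3, replicates 18 and 20 on slide 4 together with P14.5 replicates 26 and 28, and P14.5 replicates 25 and 27 on slide 5, which was scanned on another day. The defining miRNAs of endothelium, epithelium and smooth muscle were detected on all 8 arrays. So were miR-142-3p, miR-150-5p and miR-223-3p of leukocytes and miR-1a-3p, miR-133a-3p and miR-133b-3p of striated muscle and heart, while miR-155-5p was detected on 2 arrays, miR-206-3p on 1 and the heart miRNAs miR-208a and miR-499 on none. Those of brain (miR-124-3p and miR-9-5p) and of the exocrine pancreas (miR-216a-5p and miR-217-5p) were detected on none of the 8 arrays. That of liver (miR-122-5p) was detected on 2. miR-375-3p, also listed as a miRNA of the pancreas, was detected on all 8 arrays.

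Most of the miRNAs that could be measured in the growing lung changed between P5.5 and P14.5. Of the 256 tested, 168 (65.6%) passed the threshold (limma, Benjamini-Hochberg adjusted p at 0.05), of which 76 (29.7%) were higher and 92 (35.9%) lower at P14.5. At an unadjusted p under 0.05 there were 183. Among the 199 miRNAs detected on all 8 arrays, 122 (61.3%) passed, with 55 higher and 67 lower. The change was at least 2-fold for 76 of the 168, with 36 higher and 40 lower. The median SD was 0.15 at both ages, and the median SE of a difference was 0.11. Since the signal of each array is scaled, all changes are relative. The median difference over all tested miRNAs was -0.06 here and -0.46 when the arrays were scaled over all probes, where 36 were higher and 118 lower. With the scanner software's total gene signal 52 were higher and 121 lower. With normexp background correction, which compresses dim signals, 54 of the 168 passed, 19 higher and 35 lower, and 114 did not. All of the 36 that were higher with scaling over all probes were also higher here. All of the 92 that fell here also fell with that scaling. Scaling over all probes lowers the differences, so a rise there was bound to be above 0 here, and a fall here could not turn there. Neither kept direction is evidence for the calls. Of the 168 calls here, 40 were lost with that scaling, all of them rises. For most rises it is said below where they turned. Among 5 miRNAs named for their high probe signals, which do not rank their amounts, miR-126-3p and let-7c-5p rose, and let-7a-5p, let-7f-5p and miR-3963 (14.92 to 15.20 at P5.5 and 14.43 to 15.19 at P14.5, adjusted p = 0.0787) did not pass. Because the RNA came from whole lungs, fewer cells of a type and less of a miRNA per cell cannot be told apart.

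**Figure D1:**
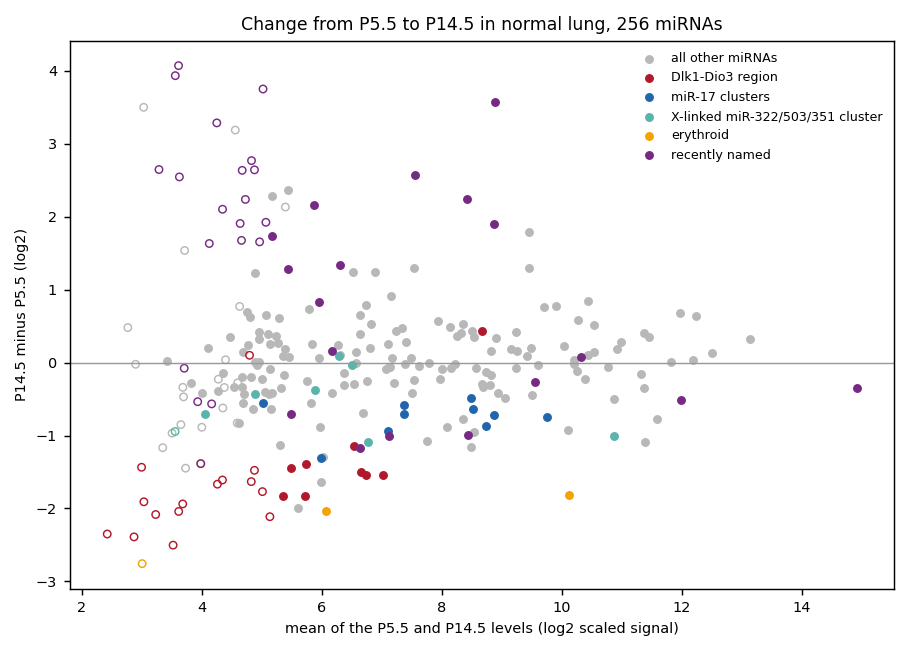
Change from P5.5 to P14.5 (log2, vertical axis) against the mean level of both ages (log2, horizontal axis) for the 256 miRNAs tested, with 5 lists coloured; filled points were detected on all 8 arrays and open points were not. The Dlk1-Dio3 and erythroid miRNAs lie almost entirely below 0, the miR-17 clusters form a tight group between -1.31 and -0.48, and most recently named miRNAs lie far above 0.

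The miRNAs of the Dlk1-Dio3 region fell almost without exception. This imprinted region on chromosome 12 is transcribed from the maternal copy, carries a very large group of miRNAs and is highly active in the embryo and the newborn. Of its 101 listed miRNAs, 24 were tested, 13 were detected on too few arrays to be tested and 64 were detected on none of the 8. Of the 24 tested, 22 fell and 0 rose, against 35.9% lower among all miRNAs tested, with a median difference of -1.65. A miRNA that is dim at 1 age can pass the detection filter only through the other, so the 9 detected on all 8 arrays are given apart, and of these 8 fell.

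miR-127-3p, which lies antisense within the coding gene Rtl1, had levels of 7.70, 7.71, 7.86 and 7.88 at P5.5 and 6.28, 6.23, 6.30 and 6.17 at P14.5. Every P14.5 array was more than 1 unit below every P5.5 array, and the fall was 2.91-fold (-1.54, SE 0.07, adjusted p = 2.5e-06). miR-379-5p, the first miRNA of the large cluster downstream, had levels of 7.44, 7.42, 7.63 and 7.56 at P5.5 and 5.91, 6.06, 5.97 and 5.95 at P14.5. It fell by the same amount as miR-127-3p (-1.54, SE 0.07). miR-376a-3p went from 6.60, 6.41, 6.87 and 6.68 to 4.81, 4.90, 4.80 and 4.71, a 3.56-fold fall (-1.83, SE 0.10). The other miRNAs of the region among the largest falls were miR-300-3p (-1.83), miR-434-3p (-1.50), miR-329-3p (-1.44) and miR-299b-5p (-1.64), which lies in the region but is not in the list of 101. The falls of miR-300-3p (-0.80) and miR-329-3p (-0.68) did not pass with normexp background correction. Dimmer members could be given only as limits, because at P14.5 they were not well above background. miR-409-5p was at least 1.81-fold lower, miR-369-5p at least 1.41-fold, miR-487b-3p at least 1.22-fold and miR-495-3p at least 1.16-fold. miR-434-5p, well above background on 1 of the 4 P14.5 arrays, was at least 1.83-fold lower. Over the alternative settings the smallest falls of these miRNAs were, in the same order, -0.56, -0.51, -0.51, -0.49 and -0.55.

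By position, which takes in miR-299b-5p and leaves out miRNAs without a RefSeq position, the falls covered both groups of the region. In the upstream group (chr12:109585818-109595352), all 8 tested miRNAs fell. In the downstream group (chr12:109709065-109747914), 13 of 16 fell. The 3 exceptions were named after their values were seen. miR-494-3p had levels of 8.49, 8.38, 9.34 and 7.64 at P5.5 and 9.03, 8.61, 9.03 and 8.93 at P14.5, so the groups overlapped (0.44, adjusted p = 0.26). miR-376b-3p spread from 3.61 to 6.30 at P5.5 and from 3.78 to 6.33 at P14.5 and did not pass either (adjusted p = 0.914). miR-3072-5p lies in the same group but was counted with the recently named miRNAs. It rose from at most 3.95 to between 5.19 and 7.24, at least 4.25-fold. Its lowest difference over the alternative settings was 0.58. With normexp background correction, 5 of the 24 listed miRNAs fell past the threshold, miR-127-3p, miR-376a-3p, miR-379-5p, miR-434-3p and miR-136-5p, and 0 rose.

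**Figure D2:**
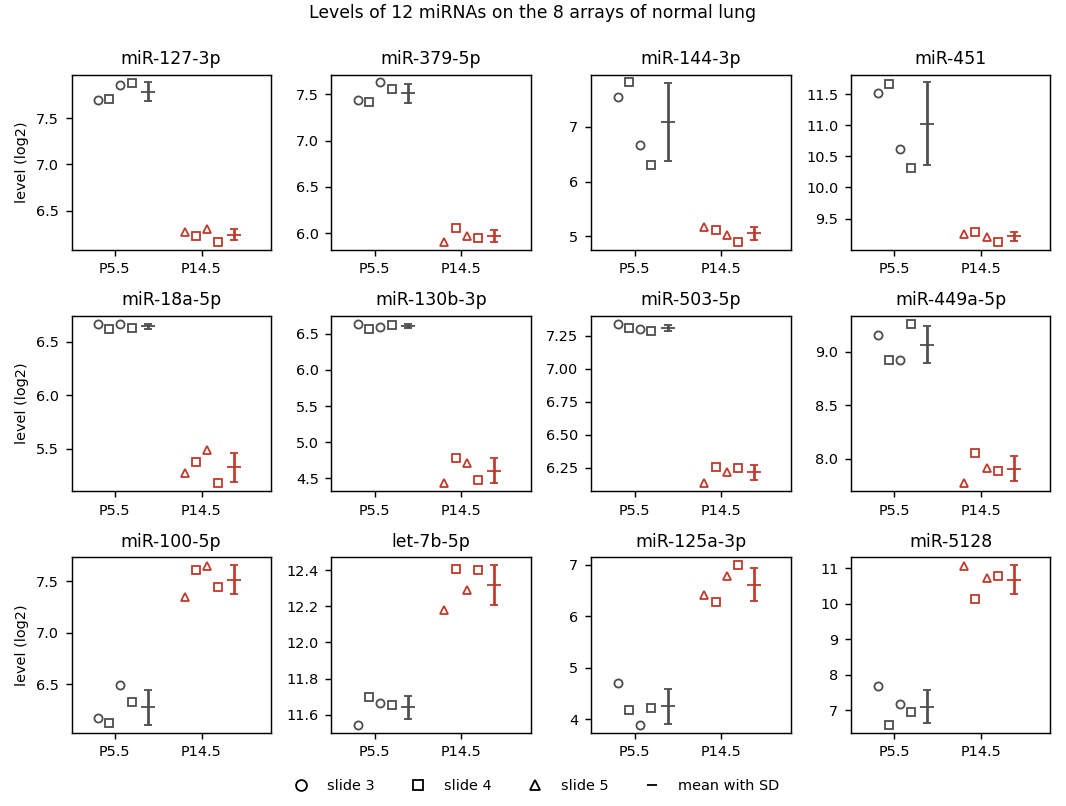
Levels (log2) of 12 miRNAs on each of the 8 arrays of normal lung, by age, with the slide of each array as the marker and the mean with SD beside the points. All 12 were picked among miRNAs past the threshold. In every panel the P5.5 and P14.5 arrays do not overlap, which held for 65.2% of all miRNAs tested. Nor do they overlap among the arrays of slide 4, which held for all 168 miRNAs past the threshold. The P5.5 arrays of miR-144-3p and miR-451 spread widely.

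Red-cell miRNAs also fell. miR-144 and miR-451 are made from 1 transcript in developing red cells, and miR-451 is among the most abundant miRNAs of erythrocytes. All 4 tested members of the erythroid list fell, beside 35.9% of all miRNAs tested, with a median difference of -1.92. Of the 4, 2 fell past the threshold with normexp background correction, miR-451 and miR-144-3p. Of the 6 members of the list, 2 were detected on none of the 8 arrays. miR-451 had levels of 11.52, 11.66, 10.62 and 10.32 at P5.5 and of 9.25, 9.29, 9.20 and 9.13 at P14.5. The P5.5 pups therefore spread over 1 unit, the P14.5 pups hardly at all, and the groups did not overlap, which held for 65.2% of all miRNAs tested (3.51-fold lower, -1.81, SE 0.29, adjusted p = 0.0008). miR-144-3p showed the same order of pups at P5.5, with 7.54, 7.81, 6.68 and 6.31, and stood at 5.17, 5.12, 5.02 and 4.90 at P14.5 (-2.03, SE 0.32). Its other strand, miR-144-5p, was at least 1.52-fold lower, and miR-3107-5p at least 1.78-fold. Over the alternative settings the smallest falls of these miRNAs were -0.59 and -0.50. The summed signal of the list ran from 10.44 to 11.79 at P5.5 and from 9.24 to 9.41 at P14.5. The lungs had been flushed until white, and how much blood remained in each was not tested.

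Clusters that are active in dividing cells fell as whole groups. The miR-17~92 cluster and its paralogs are targets of MYC and E2F and promote proliferation in the fetal lung. All 10 tested members fell, beside 35.9% of all miRNAs tested, by -0.48 to -1.31 with a median of -0.72. All 10 were detected on all 8 arrays, and 9 fell past the threshold with normexp background correction. Of the 27 members on the array, 16 were detected on none of the 8. The largest fall was that of miR-18a-5p, from 6.66, 6.62, 6.66 and 6.63 to 5.27, 5.37, 5.49 and 5.18 (2.48-fold, -1.31, SE 0.08, adjusted p = 5.8e-06). miR-19a-3p fell by 0.94, miR-20a-5p by 0.87 and miR-92a-3p by 0.72 on the log2 scale. The spread between pups was small against these changes, with miR-20a-5p at 9.16 to 9.18 on the 4 P5.5 arrays and 8.13 to 8.41 on the 4 P14.5 arrays. All 6 tested miRNAs of the chromosome 14 cluster (chr14:115043721-115044496) fell, and so did all 3 of the related cluster on chromosome 5 (chr5:138165332-138165807). All 4 tested miRNAs that share the seed AAAGUGC were among these falls.

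The miRNAs with the seed AGUGCAA, shared by the miR-130 and miR-301 families, fell to unequal degrees. miR-130b-3p fell most, from 6.63, 6.56, 6.60 and 6.62 to 4.44, 4.79, 4.72 and 4.48 (3.99-fold, -2.0, SE 0.09, adjusted p = 2.5e-06). miR-301a-3p, which lies in the gene Ska2, fell by 0.77 (SE 0.12) and miR-130a-3p by 0.35 (SE 0.07) on the log2 scale. These 3 miRNAs come from different chromosomes, 16, 11 and 2.

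The X-linked cluster of miR-322 (the mouse form of miR-424), miR-503 and miR-351 is linked to growth arrest and differentiation. Of its 8 tested members 6 fell, beside 35.9% of all miRNAs tested, with a median difference of -0.56. Of the 8, 2 fell with normexp background correction. miR-503-5p went from 7.34, 7.31, 7.30 and 7.28 to 6.14, 6.26, 6.22 and 6.25 (2.13-fold lower, -1.09, SE 0.06). miR-322-5p fell by 1.01, miR-351-5p by 0.70 and miR-450b-3p by 0.43 on the log2 scale. The remaining 2 members, named after their values were seen, had differences of 0.09 (miR-450a-5p, adjusted p = 0.519) and -0.03 (miR-542-3p, adjusted p = 0.693).

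The 6 miRNAs with the seed AGCAGCA, which is known for its action on cyclins and other cell cycle genes, moved in both directions. miR-497-5p rose from 9.59, 9.60, 9.38 and 9.49 to 10.15, 10.38, 10.34 and 10.29 (0.78, SE 0.08, adjusted p = 6.6e-05). Its neighbour miR-195-5p, 1 transcript with it (chr11:70234730-70235082), rose by 0.76 (SE 0.10). Both calls, but not their direction, were lost with scaling over all probes. miR-15b-5p, in the gene Smc4, fell from 10.54, 10.67, 10.48 and 10.54 to 9.54, 9.88, 9.48 and 9.66 (-0.92, SE 0.10), and miR-322-5p fell as given above. miR-15a-5p (0.03, SE 0.06, adjusted p = 0.682) and miR-16-5p (-0.02, SE 0.07, adjusted p = 0.757) did not pass, and both were named after their values were seen. The median over the 6 was 0.00, while the members ranged from -1.01 to 0.78.

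**Figure D3:**
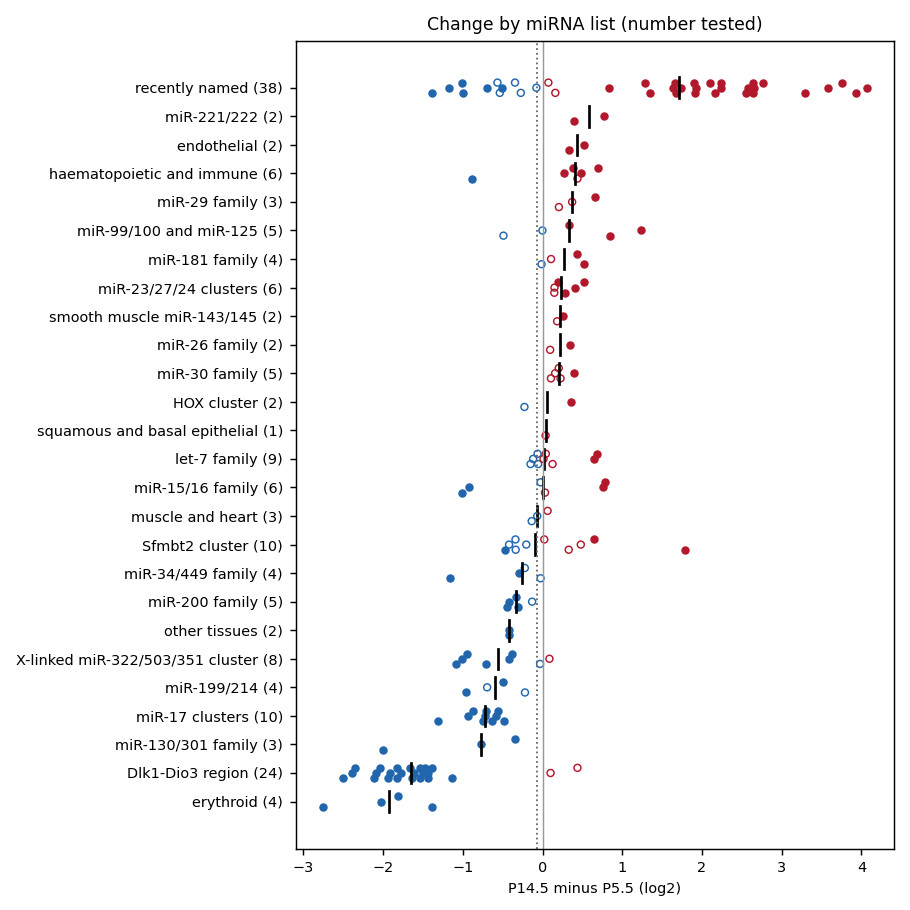
Change from P5.5 to P14.5 (log2) of each tested miRNA, by list, with the number tested in brackets; red is higher and blue lower at P14.5, filled points passed the threshold, bars are list medians and the dotted line is the median of all 256 (-0.06). The Dlk1-Dio3, erythroid, miR-17 and miR-130 family lists lie to the left, the miR-15/16 family is divided, and the recently named miRNAs lie mostly to the right.

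Epithelial miRNAs fell slightly. The miR-200 family keeps epithelial cells from turning mesenchymal by repressing Zeb1 and Zeb2. Of its 5 members 4 fell, beside 35.9% of all miRNAs tested. On the log2 scale miR-200b-3p fell by 0.44, miR-200c-3p by 0.42, miR-429-3p by 0.34 and miR-141-3p by 0.31, each with an SE of 0.07 to 0.09. Of the 5, 2 fell past the threshold with normexp background correction, miR-200b-3p and miR-200c-3p. miR-200a-3p had levels of 8.76, 8.77, 8.77 and 8.93 at P5.5 and 8.66, 8.73, 8.68 and 8.64 at P14.5 (-0.13, adjusted p = 0.105). Members of the miR-34 and miR-449 family, which share a seed, differed more among themselves. miR-449a-5p, which lies in Cdc20b and is abundant in multiciliated cells, fell from 9.16, 8.92, 8.92 and 9.26 to 7.77, 8.05, 7.91 and 7.88 (2.24-fold, -1.16, SE 0.10, adjusted p = 3e-05). miR-34a-5p, a p53 target, fell by 0.29 (SE 0.08, adjusted p = 0.0127). miR-34c-5p (-0.22, adjusted p = 0.069) and miR-34b-5p (-0.03, adjusted p = 0.864) did not pass. With slide as a fixed block, the calls of miR-34a-5p and miR-429-3p were lost. Of the 4 tested members of the miR-34 and miR-449 family, 1 fell past the threshold with normexp background correction, miR-449a-5p. Of the 2 squamous and basal epithelial miRNAs listed, miR-203-3p was tested (0.04, adjusted p = 0.897) and miR-205-5p was detected on 1 of the 8 arrays.

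Among mesenchymal and muscle miRNAs the changes were mixed. miR-199a and miR-214 are made from the antisense transcript of dynamin genes in mesenchymal cells. miR-199a-5p fell from 8.94, 8.92, 9.02 and 9.18 to 7.97, 8.12, 8.10 and 8.04 (-0.96, SE 0.08), and miR-199a-3p fell by 0.49. miR-199b-5p (-0.22, adjusted p = 0.0578) did not pass. miR-214-3p, with levels of 7.01 to 7.07 at P5.5, was at 7.02 and 6.82 on the P14.5 arrays of slide 5 and at 5.73 and 5.79 on those of slide 4, and did not pass (-0.70, adjusted p = 0.068). Of the smooth muscle miRNAs, miR-145-5p rose by 0.26 (SE 0.09, adjusted p = 0.0266), a call that was lost without any of replicates 17, 18, 20, 25 or 28 and a direction that turned with scaling over all probes (-0.13). miR-143-3p differed by 0.18 (adjusted p = 0.0912). None of the 3 striated muscle and heart miRNAs tested passed, with differences of -0.14 for miR-133a-3p, -0.07 for miR-133b-3p and 0.06 for miR-1a-3p. Their adjusted p ran from 0.693 to 0.884, and their SE from 0.23 to 0.33. Of the 7 miRNAs listed for other tissues, miR-375-3p and miR-128-3p were tested and each fell by 0.42. Both calls were lost with slide as a fixed block.

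Within the let-7 family, miRNAs that rise as tissues differentiate, 2 of 9 rose and 0 fell (beside 29.7% higher among all miRNAs tested). These were let-7b-5p and let-7c-5p, which lie less than 1 kb apart on chromosome 15 (chr15:85706616-85707346). let-7b-5p had levels of 11.54, 11.70, 11.66 and 11.66 at P5.5 and 12.18, 12.41, 12.29 and 12.40 at P14.5 (0.68, SE 0.08, adjusted p = 9.6e-05). let-7c-5p rose by 0.64 (SE 0.08). The other 7 had differences of -0.15 to 0.13 and did not pass, among them let-7a-5p (0.13), let-7f-5p (0.04), let-7e-5p (-0.12) and let-7d-5p (-0.15). With scaling over all probes, let-7b-5p and let-7c-5p stayed higher but lost their calls, and let-7a-5p and let-7f-5p changed sign. There 0 of the 9 were higher and 2 lower past the threshold, and with total gene signal 2 were higher and 4 lower. let-7a-5p, let-7b-5p and let-7c-5p each lie 1 base from another mature miRNA. How far their probes also bind such close sequences was not tested.

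The miR-99/100 family, which acts on mTOR, and the miR-125 family are made together with let-7 miRNAs in several clusters, and 3 of their 5 members rose, beside 29.7% of all miRNAs tested. With scaling over all probes 1 of the 5 was higher and 1 lower. miR-100-5p had levels of 6.17, 6.12, 6.50 and 6.32 at P5.5 and 7.35, 7.61, 7.65 and 7.45 at P14.5. This was 1 of the 16 rises of at least 2-fold among miRNAs detected on all 8 arrays (2.36-fold, 1.24, SE 0.11, adjusted p = 2.9e-05), and it passed under both scalings. miR-125b-5p rose by 0.85 (SE 0.09) and miR-99a-5p by 0.33 (SE 0.08). The sequences of miR-100-5p and miR-99a-5p differ by 1 base, and whether their probes bind both was not tested. With scaling over all probes the call of miR-125b-5p was lost, and the difference of miR-99a-5p turned to -0.06. miR-125a-5p ran from 9.10 to 9.48 at P5.5 and from 8.48 to 9.33 at P14.5 and did not pass (-0.49, adjusted p = 0.0518). The opposite strand of the same hairpin, miR-125a-3p, rose from 4.71, 4.17, 3.90 and 4.23 to 6.41, 6.28, 6.78 and 6.99 (5.15-fold, 2.36, SE 0.21, adjusted p = 3e-05). Only 1 of its 4 probes could be measured, and with normexp background correction the difference was 0.58 and did not pass (adjusted p = 0.109).

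In the miR-29, miR-30, miR-26 and miR-10 families most members did not pass. miR-29 miRNAs repress collagen and elastin, and of the 3 members miR-29c-3p rose by 0.66 (SE 0.17, adjusted p = 0.0085), while miR-29a-3p (0.37, adjusted p = 0.0735) and miR-29b-3p (0.21, adjusted p = 0.154) did not pass. In the miR-30 family, miR-30a-5p rose by 0.40 (SE 0.07), and miR-30d-5p (0.23), miR-30b-5p (0.20) and miR-30e-5p (0.16) did not pass. miR-26a-5p rose by 0.34 (SE 0.06) and miR-26b-5p differed by 0.10 (adjusted p = 0.285). miR-10a-5p, from a HOX cluster, rose by 0.35 (SE 0.07), and its paralog miR-10b-5p differed by -0.23 (adjusted p = 0.154). Apart from miR-29c-3p and miR-30a-5p, which lost only the call, every miRNA of this paragraph with a difference above 0 was below 0 with scaling over all probes. Relative to the median of all miRNAs, which moves with the scaling, the list medians of the miR-29, miR-30 and miR-26 families were 0.44, 0.27 and 0.28 higher.

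Both endothelial miRNAs rose, beside 29.7% of all miRNAs tested, and both calls depended on the scaling. miR-126, made from an intron of Egfl7, is the defining miRNA of endothelium and supports signalling by VEGF. miR-126-3p had levels of 12.98, 12.83, 13.01 and 13.06 at P5.5 and 13.16, 13.39, 13.33 and 13.31 at P14.5 (0.33, SE 0.08, adjusted p = 0.0065). Its other strand, miR-126-5p, rose by 0.53 (SE 0.13, adjusted p = 0.007), from between 6.29 and 6.81 to between 6.90 and 7.16. miR-126-3p was at -0.07 with scaling over all probes, and miR-126-5p lost its call there and with slide as a fixed block. miR-221-3p, which acts on KIT and on vessel growth, rose by 0.39 (but -0.0015 with scaling over all probes) and miR-222-3p by 0.77 (0.37 and no longer past the threshold there), the second being well above background on 3 of 4 P5.5 arrays and turning to -0.08 with normexp background correction. The rise of miR-221-3p was 0.20 within slide 4 and 0.59 between the other slides, and a fixed block for slide ended its call. In the miR-23/27/24 clusters, 4 of 6 tested members rose, beside 29.7% of all miRNAs tested. These were miR-23b-3p (0.52), miR-27b-3p (0.41), miR-23a-3p (0.28) and miR-24-3p (0.19). With scaling over all probes none passed, and the last 2 turned to -0.12 and -0.20. In the miR-181 family miR-181a-5p rose by 0.53 and miR-181c-5p by 0.43, while miR-181d-5p (0.11) and miR-181b-5p (-0.01) did not pass. Both calls of this family were lost with scaling over all probes (0.13 and 0.03), with normexp background correction and with total gene signal.

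MiRNAs of the haematopoietic and immune list moved in both directions. Of the 6 tested 4 were higher and 1 lower, beside 29.7% and 35.9% of all miRNAs tested. With scaling over all probes, and with normexp background correction, 0 were higher and 1 lower. miR-223-3p, which marks neutrophils and other myeloid cells, fell from 8.38, 8.26, 8.68 and 8.78 to 7.61, 7.72, 7.60 and 7.65 (1.84-fold, -0.88, SE 0.12, adjusted p = 0.00029). miR-146a-5p, which dampens NF-kB signalling, rose from 7.01, 7.09, 7.05 and 7.21 to 7.60, 7.59, 7.48 and 7.61 (0.48, SE 0.07). miR-146b-5p rose by 0.70 (SE 0.10) and miR-142-5p, found in all leukocytes, by 0.39 (SE 0.11). The other strand of that hairpin, miR-142-3p, did not pass (0.44, adjusted p = 0.0596), and miR-150-5p rose by 0.27 (adjusted p = 0.0206). Both of these were named after their values were seen. The rises of miR-146a-5p and miR-146b-5p lost their calls with scaling over all probes, and miR-142-5p was then at -0.01. With normexp background correction miR-142-5p was at -0.11 and miR-146b-5p at -0.08. The summed signal of the 12 miRNAs on this list overlapped between the ages, with 9.75 to 10.03 at P5.5 and 9.77 to 9.98 at P14.5. miR-21-5p, a miRNA raised in many injured tissues, fell from between 11.85 and 12.11 to between 11.02 and 11.38 (1.71-fold, -0.78, SE 0.10). It was named after its values were seen.

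The largest rises were those of miRNAs with late numbers in the naming order, few of which have a known role. Of the 263 such miRNAs on the array, 198 were detected on none of the 8 arrays and 38 were tested. Of the 38, 25 were higher and 6 lower, and of the 18 detected on all 8 arrays 9 were higher and 5 lower, beside 29.7% higher and 35.9% lower among all tested. miR-5128, in the gene Strbp, had levels of 7.69, 6.59, 7.16 and 6.95 at P5.5 and 11.08, 10.12, 10.74 and 10.78 at P14.5. No P5.5 array came within 2 units of a P14.5 array, and the rise was 12.0-fold (3.58, SE 0.27, adjusted p = 1.3e-05). miR-706, with an earlier number, rose from 4.26, 3.79, 4.02 and 4.03 to 6.40, 6.18, 6.01 and 6.66 (4.88-fold, 2.29, SE 0.16), but with normexp background correction the difference was 0.45 and did not pass (adjusted p = 0.245). miR-466i-5p, put in the Sfmbt2 cluster list by its name and without a RefSeq position here, rose 3.47-fold (1.79, SE 0.14). miR-3470a rose 3.74-fold (1.90, SE 0.22). In these 4, the P14.5 arrays of slide 4 and slide 5 overlapped. In the Sfmbt2 cluster list as a whole, 10 of 62 miRNAs were tested. Of these 2 rose and 1 fell, beside 29.7% and 35.9% of all miRNAs tested. The other rise was that of miR-669n (0.65, SE 0.18, but -0.06 with normexp background correction), miR-669f-3p fell by 0.47 with a limit of at least 1.05-fold, and miR-466g did not pass (0.48, adjusted p = 0.287).

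In other rises of this kind the level followed the slide. miR-3960 stood at 9.86 and 9.66 on the P14.5 arrays of slide 5 and at 7.65 and 8.22 on those of slide 4, against 5.93 to 6.82 at P5.5 (2.58, SE 0.50, adjusted p = 0.0021). miR-5126, in the gene Dner, stood at 10.61 and 10.28 on slide 5 and at 8.40 and 8.89 on slide 4, against 7.16 to 7.59 at P5.5. Its rise was thus 1.42 within slide 4 and 3.07 between the other slides. The same order was seen for miR-1895 (2.16, SE 0.35) and miR-5105 (1.74, SE 0.40), but not for miR-5121 (1.34, SE 0.17), at 6.94 to 7.05 on all P14.5 arrays. Over the 38 tested miRNAs the median difference was 1.26 within slide 4 and 2.21 between the other slides, beside -0.08 and -0.08 over all 256. For miRNAs well above background on all P14.5 arrays and on no P5.5 array, the 5 largest rises were at least 3.52-fold for miR-1894-3p, 2.97-fold for miR-1967, 2.73-fold for miR-5130, 2.5-fold for miR-5119 and 1.82-fold for miR-3095-3p, and the last of these differed by -0.01 with normexp background correction. miR-3472, well above background on 1 P5.5 array, was at least 6.71-fold higher, but differed by 0.90 with normexp background correction. These limits hold only for the processing used here. Over the alternative settings, the lowest differences were 0.46 for miR-1894-3p, 0.39 for miR-1967, 0.37 for miR-5130 and 0.19 for miR-5119. With normexp background correction, 5 of the 38 were higher and 3 lower past the threshold, and their median difference went from 1.71 to 0.20. The calls of miR-1894-3p, miR-1895, miR-1967, miR-3072-5p, miR-3095-3p, miR-5105, miR-5119, miR-5121 and miR-5130 were among those lost. miR-3096b-3p was among the falls of this list (-1.18, SE 0.12, adjusted p = 5.7e-05).

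Across the 209 tested miRNAs with a RefSeq sequence, the difference correlated with GC content at r = 0.37 (Pearson) and rho = 0.14 (Spearman), where all points share the 8 arrays. A check of GC content over the recently named rises is void, since 18 of the 25 had a sequence, too few for it. In 20 hairpins both strands were tested, and in 17 of them the 2 strands had differences of the same sign. In 7 hairpins both strands passed in the same direction, among them miR-126, miR-144 and miR-199a. In 1, miR-1839, named after its values were seen, the strands passed in opposite directions (0.42 for the 5p and -0.42 for the 3p strand).

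The age change was also read within parts of the same 8 arrays. Slide 4 held 2 pups of each age, and slides 3 and 5 the remaining arrays. Both parts entered the fit that gave the calls, so their signs are no independent evidence of them. With slide as a fixed block in the fit, 149 passed, 66 higher and 83 lower. In that fit the age difference came from slide 4 alone, since slides 3 and 5 each held a single age. The arrays of slides 3 and 5 entered only the estimate of the spread. The Dlk1-Dio3 list had a median difference of -1.63 within slide 4 and -1.73 between the other slides, the erythroid list of -1.91 and -1.93, and the miR-17 list of -0.75 and -0.71. In a fit of the 16 arrays of both exposures with slide as a block, added after the data had been seen, 111 passed.

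**Figure D4:**
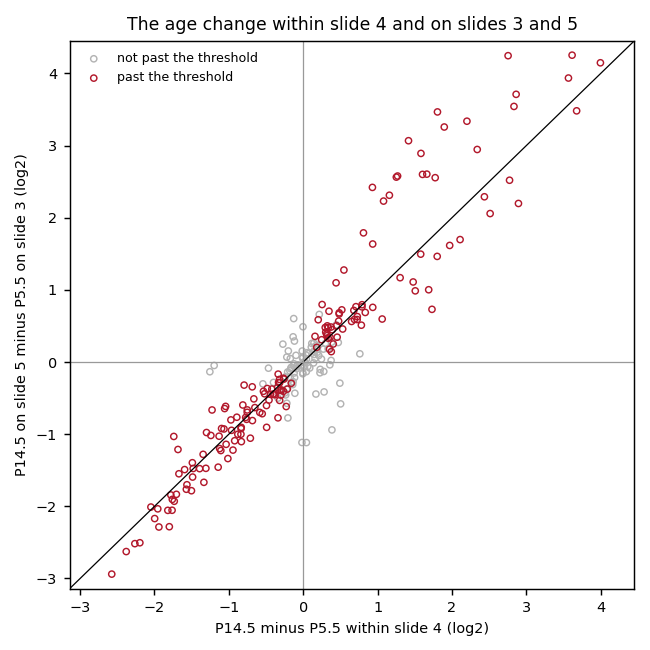
Change from P5.5 to P14.5 (log2) within slide 4 (horizontal axis, 2 arrays of each age) against that between the P14.5 arrays of slide 5 and the P5.5 arrays of slide 3 (vertical axis, 2 arrays of each age), for the 256 miRNAs tested. The Dlk1-Dio3, erythroid and miR-17 miRNAs lie along the diagonal, and many recently named miRNAs lie above it.

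Levels at the earlier ages in normoxia are given as a description, since P2.5 and P3.5 were on other slides and age and slide cannot be told apart there. The Dlk1-Dio3 list was 0.55 above its P5.5 level at P2.5 and 0.66 above it at P3.5 (medians of 24 miRNAs), and miR-127-3p stood at 8.49, 8.47, 7.79 and 6.24 at the 4 ages in order. The erythroid list was 0.59 and 0.73 above its P5.5 level. The miR-17 list differed from its P5.5 level by 0.00 and -0.06, and miR-18a-5p stood at 6.68, 6.62 and 6.64 before its level of 5.33 at P14.5. let-7b-5p, at 11.07, 11.13, 11.64 and 12.32, had its lowest values at P2.5 and P3.5. miR-146a-5p was higher at P2.5 (7.63) and P3.5 (7.43) than at P5.5 (7.09) and stood at 7.57 at P14.5.

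**Figure D5:**
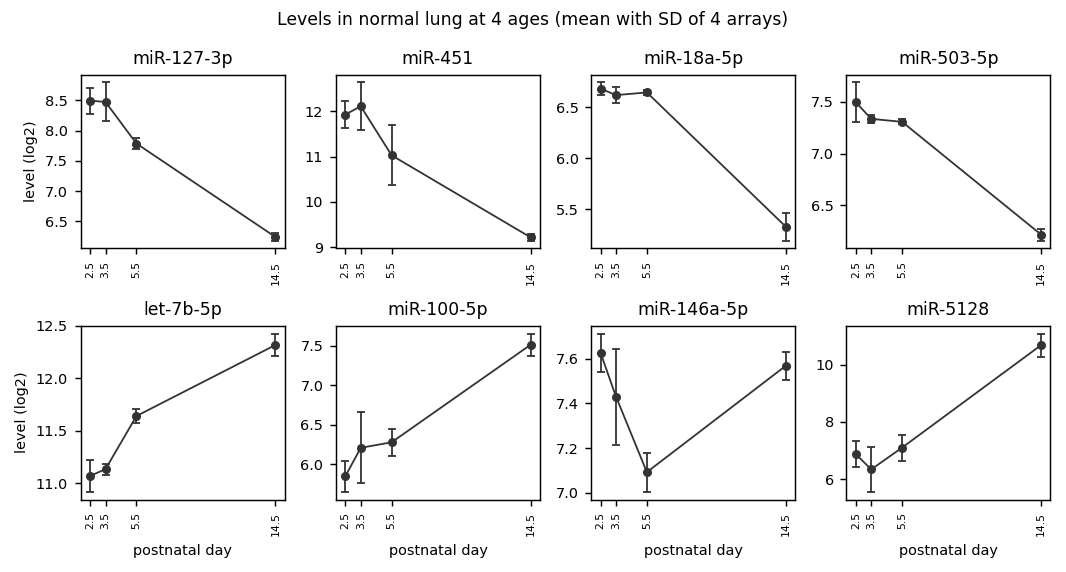
Levels (log2, mean with SD of 4 arrays) of 8 miRNAs in normal lung at the 4 ages, with the postnatal day on the horizontal axis and a separate vertical scale in each panel. miR-18a-5p is level up to P5.5 (6.64) and low at P14.5 (5.33), miR-127-3p is already lower at P5.5 (7.79) than at P3.5 (8.47), and miR-146a-5p is lowest at P5.5 (7.09).

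To see which of these changes were particular to normal lungs, the change from P5.5 to P14.5 was compared with that in pups kept in hyperoxia (4 pups at each age, a model of disturbed alveolarization) as an interaction in 1 limma fit of the 16 arrays. The age change differed for 63 of 275 miRNAs tested (22.9%), of which 37 were more positive and 26 more negative in normoxia. The median change over the 275 was -0.08 in normoxia and -0.29 in hyperoxia. The falls of the Dlk1-Dio3 region were deeper in normoxia, with a median of -1.63 against -0.83 in hyperoxia over 27 miRNAs. The difference passed for 15 of the 27, all more negative in normoxia. For the X-linked cluster the order was the other way, with medians of -0.56 in normoxia and -1.75 in hyperoxia, and 6 of 8 passed. Both endothelial miRNAs, which rose in normoxia, differed, with a hyperoxia difference of -0.84 for miR-126-3p and -1.17 for miR-126-5p. miR-497-5p (-0.36 in hyperoxia, interaction 1.14, adjusted p = 0.00037) and miR-195-5p (-0.85, interaction 1.61, adjusted p = 0.0082) likewise differed. The largest of the interactions named here was that of miR-21-5p, with -0.78 in normoxia and 1.54 in hyperoxia (-2.32, adjusted p = 0.00012).

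None of the 10 miR-17 cluster miRNAs and none of the 4 erythroid miRNAs passed this test, which does not show that they changed alike. Without the 3 arrays of low labelling given below, 2 of the 10 and 3 of the 4 passed, all more negative in normoxia. The median differences in hyperoxia were -0.69 and -0.89. Of the 38 recently named miRNAs 5 passed, miR-1949, miR-5109, miR-3096b-3p, miR-5097 and miR-3968, all more negative in normoxia, and none of these was among the rises. The labelling spike-in was out of range on hyperoxia P14.5 replicates 29 and 31 as well as on normoxia replicate 28. Without these 3 arrays, 62 of the 63 kept their call and sign, 118 of 317 miRNAs passed, and 21 of the 27 Dlk1-Dio3 miRNAs did. The test depended on the scaling, since with the 75th percentile over all probes only miR-150-5p and miR-322-3p passed. With normexp background correction 6 passed, among them miR-21-5p (-2.16), miR-195-5p and miR-497-5p. None of the 6 was on the Dlk1-Dio3 or the X-linked list. With the deposited series values, miR-300-3p, miR-376a-3p and miR-382-5p of the first list passed, and miR-322-3p of the second.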

How the data were processed

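The scanner files of the 8 arrays, and of the other 24 where named, were analysed with the groups of the deposited labels. Per the file headers, the array was an Agilent mouse miRNA array with miRBase 17 names, 1 colour (Cy3), and probe positions on mm9. The authors deposited the intensity of each spot, on a linear scale, as written by Agilent Feature Extraction (10.7.3.1 in the submitters' processing notes) after background subtraction and without scaling between arrays. The deposited files also held other values per spot, namely flags that mark spots as outliers, as saturated (0 mouse spots on the 8 arrays) or as brighter than background. A deposited series table held log2 values per miRNA made by a method not given in the sources used here, and it was used as an alternative, with 0 columns left without a sample.

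Spots of a probe were averaged without outlier flags, signals were divided by the array's 75th percentile among 205 probes (7.44% of 2754) that exceeded background on all 32 arrays, and the probes of a miRNA were averaged before log2, with a floor of 2.30 scaled units (log2 1.20). Each miRNA had 1 to 4 probes. A miRNA was detected where a share over 0.5 of the spots of any of its probes carried the flag, and tested where detected on all 4 arrays of 1 group. Probes for 57 virus miRNAs were left out. Against a group never well above background, the fold is a lower limit set by the lowest signal well above background on each array. It is also given where some arrays of that group were above it. The limit holds for this processing only, and differences under other settings can be smaller.

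Two-sided tests came from lmFit and eBayes of limma 3.58.1, run under R 4.3.3 (with the data.table package, version 1.17.8), Benjamini-Hochberg adjusted at 0.05 over all miRNAs tested. On simulated data of 256 miRNAs for P14.5 against P5.5, 66%, 88.3% and 99% of changes of 0.5, 1 and 2 (log2) were called, and 4.26% of calls were false. The simulated arrays were independent, without effects of slide, scan day or scaling, so this is not the share of false calls in these data. The methods' t-test (Welch) was an alternative, and the others concerned scaling, background, floor, detection filter, slide, the arrays fitted and each array left out. Sequences came from RefSeq (838 matched by name and 44 by number and probe). Plots were made with matplotlib 3.10.9, and summaries with pandas 2.3.3 and numpy 2.4.6 under Python 3.11.15.

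The text names the 10 largest rises and falls among miRNAs detected on all 8 arrays whose groups did not overlap. It also names the 5 largest limits in each direction, where fewer than 5 falls qualified. Further named are up to 4 members of each list by smallest p and the 5 of highest level, with the exceptions stated. The list of miR-302 and miR-367 miRNAs had 0 of 10 members detected. The comparison, its members and the lists were chosen with earlier results of these data known, so lists are described by counts and medians without a test.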

Additional observations from a re-analysis of the deposited data

Results flagged for a closer look

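Of the 117 miRNAs named, 12 had an array of 1 age far from the other 3, by a gap between it and the nearest that exceeded Dixon's 95% critical share of the range, in 234 groups of 4. Chance alone marks about 1 in 20 groups. At P5.5, replicate 17 was highest for miR-1967 (gap 1.00 of the range), miR-5130 (1.00) and miR-1894-3p (0.868), all not well above background there. Replicate 20 was highest for miR-200a-3p (0.899) and miR-542-3p (0.839), and replicate 19 for miR-203-3p (0.910). At P14.5, replicate 26 was highest for miR-409-5p (0.842), miR-434-5p (0.832) and miR-199a-3p (0.830). Replicate 25 was lowest for miR-141-3p (0.920), replicate 27 for miR-146a-5p (0.873) and replicate 28 for miR-126-5p (0.916).

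The age change of 35 named miRNAs differed between normoxia and hyperoxia by the limma interaction test. The normoxia change was more negative for 14. In the Dlk1-Dio3 region these were miR-300-3p (by -1.60), miR-369-5p (-1.49), miR-376a-3p (-1.43), miR-487b-3p (-1.33), miR-409-5p (-1.03), miR-379-5p (-0.96), miR-329-3p (-0.91), miR-127-3p (-0.76) and miR-434-3p (-0.67). The others were miR-21-5p (-2.32), miR-3096b-3p (-1.78), miR-130b-3p (-1.20), miR-199a-5p (-1.03) and miR-299b-5p (-0.81), which lies in the region but not in its list. It was more positive for 21. In the X-linked cluster these were miR-542-3p (1.53), miR-450a-5p (1.46), miR-322-5p (1.27) and miR-503-5p (0.89). Of the endothelial and immune lists they were miR-126-5p (1.70), miR-126-3p (1.16) and miR-146a-5p (1.44), and of the miR-34 and miR-200 families miR-449a-5p (1.07) and miR-200a-3p (0.73). The rest were miR-195-5p (1.61), miR-497-5p (1.14), let-7b-5p (1.10), miR-30b-5p (1.10), miR-100-5p (1.08), miR-181c-5p (1.01), miR-99a-5p (0.83), miR-26a-5p (0.78), miR-30e-5p (0.74), miR-23b-3p (0.60), miR-125b-5p (0.58) and miR-23a-3p (0.51). With scaling over all probes the only miRNAs that passed this test were miR-150-5p and miR-322-3p, neither of which is among those above.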

How the results depend on the processing

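The 168 calls and the 122 among miRNAs detected on all 8 arrays stayed within 1.5 times in most settings, and ran between 164 and 205, and 119 and 132, when each array was left out in turn. The methods' t-test gave 158, with 172 at an unadjusted p under 0.05. They became 54 and 53 with normexp background correction. Without a detection filter 259 of 474 passed. With slide as a fixed block over 16 arrays, chosen after seeing the data, they became 111 and 71, and on slide 4 alone, chosen likewise, 78 of those detected on all 8 arrays passed. Of all calls, 76 higher and 92 lower here were 36 and 118 when every probe entered the percentile, 52 and 121 with the scanner software's total gene signal, and 19 and 35 with normexp. The cause of these differences was not tested. No paired analysis was possible because the groups share no replicate numbers. The 63 interaction calls became 2 over all probes, 26 with quantile normalization, 6 with normexp, 25 with total gene signal, 16 with the deposited series values, 32 among miRNAs detected on every array, 98 in a fit of all 32 arrays, 98 with array weights and 118 without the 3 arrays of low labelling. Leaving out each array gave 46 to 107, the highest without hyperoxia P14.5 replicate 31, and 46 without hyperoxia P5.5 replicate 24. For the 117 named miRNAs, 2760 of 3140 values kept direction and side of the threshold, 184 lost the call, 75 gained it and 121 changed sign, and 28 miRNAs were the same in every setting. Of the calls, miR-145-5p was lost without replicate 17, 18, 20, 25 or 28 (0.21 to 0.26), miR-24-3p without replicate 17 (0.19), and miR-669f-3p without replicate 19, 26 or 28 (-0.40 to -0.42). The sign changed over all probes for let-7a-5p (-0.27), let-7f-5p (-0.35), miR-10a-5p (-0.044), miR-126-3p (-0.068), miR-142-5p (-0.0079), miR-143-3p (-0.21), miR-145-5p (-0.13), miR-15a-5p (-0.36), miR-181d-5p (-0.29), miR-1a-3p (-0.33), miR-203-3p (-0.36), miR-221-3p (-0.0015), miR-23a-3p (-0.12), miR-24-3p (-0.20), miR-26a-5p (-0.051), miR-26b-5p (-0.30), miR-29a-3p (-0.024), miR-29b-3p (-0.19), miR-30b-5p (-0.19), miR-30d-5p (-0.17), miR-30e-5p (-0.24), miR-376b-3p (-0.30), miR-450a-5p (-0.31) and miR-99a-5p (-0.062). It changed over the probes detected on the 8 arrays for miR-16-5p (0.025), miR-181b-5p (0.037), miR-34b-5p (0.025) and miR-542-3p (0.018). With quantile normalization it changed for let-7a-5p (-0.060), let-7d-5p (0.11), let-7f-5p (-0.065), miR-15a-5p (-0.053), miR-181b-5p (0.054), miR-203-3p (-0.24), miR-26b-5p (-0.083), miR-30d-5p (-0.020) and miR-376b-3p (-0.086), and miR-3963 differed by 0. With normexp it changed for miR-142-5p (-0.11), miR-145-5p (-0.078), miR-146b-5p (-0.075), miR-181d-5p (-0.10), miR-1a-3p (-0.059), miR-203-3p (-0.24), miR-222-3p (-0.079), miR-3095-3p (-0.0072), miR-376b-3p (-0.31), miR-450a-5p (-0.10), miR-466g (-0.30) and miR-669n (-0.063). With total gene signal it changed for let-7a-5p (-0.12), let-7f-5p (-0.20), miR-143-3p (-0.063), miR-15a-5p (-0.21), miR-181d-5p (-0.14), miR-1a-3p (-0.21), miR-203-3p (-0.083), miR-24-3p (-0.053), miR-26b-5p (-0.15), miR-29b-3p (-0.041), miR-30b-5p (-0.043), miR-30d-5p (-0.020), miR-30e-5p (-0.088) and miR-450a-5p (-0.16). With the deposited series values it changed for let-7d-5p (0.090), miR-15a-5p (-0.063), miR-181b-5p (0.048), miR-203-3p (-0.14), miR-26b-5p (-0.076), miR-376b-3p (-0.013) and miR-3963 (0.11). With slide as a fixed block, and on slide 4 alone, it changed for miR-133a-3p (0.17), miR-133b-3p (0.28), miR-15a-5p (-0.0067), miR-16-5p (0.017), miR-181d-5p (-0.14), miR-34b-5p (0.0099) and miR-450a-5p (-0.12). With array weights it changed for miR-181b-5p (0.069), miR-1a-3p (-0.063) and miR-376b-3p (-0.34). Over 16 arrays with slide as a block it changed for let-7a-5p (-0.10), let-7f-5p (-0.23), miR-133a-3p (0.31), miR-133b-3p (0.43), miR-15a-5p (-0.026), miR-181b-5p (0.040), miR-1a-3p (-0.094), miR-26b-5p (-0.18), miR-3963 (0.015) and miR-450a-5p (-0.18). On the scan day with both ages, also chosen after seeing the data, it changed for miR-16-5p (0.0034), miR-181d-5p (-0.00034), miR-34b-5p (0.023) and miR-542-3p (0.0075). Over the arrays left out in turn, miR-203-3p ran from -0.048 to 0.26, miR-181b-5p from -0.071 to 0.068, miR-1a-3p from -0.15 to 0.24, miR-376b-3p from -0.39 to 0.62, miR-133a-3p from -0.43 to 0.025, miR-133b-3p from -0.39 to 0.18, miR-34b-5p from -0.097 to 0.056, miR-16-5p from -0.055 to 0.0056 and let-7f-5p from -0.023 to 0.074. Signals near background limit the dim miRNAs, whose folds are then lower limits for the processing used here only.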
